A study of Mus musculus with 24 samples.

Results

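The genes described here are the 4 adult globin genes (Hbb-bs, Hbb-bt, Hba-a1, Hba-a2) and 5 enzymes of heme synthesis (Alas1, Alas2, Urod, Ppox, Fech), 9 of the 14995 genes counted in mouse liver. They were taken by gene name, with no threshold on their measured levels, from a list drawn up with earlier results of these data known, and 9 of 9 were in the table and had enough counts to be tested. The livers came from 24 mice that the series title calls obese, 8 libraries in each of 3 groups, collected 20 weeks after the operation. RYGB mice had Roux-en-Y gastric bypass, an operation that shrinks the stomach to a pouch and joins it to a lower loop of small intestine. Sham mice had a sham operation, and WM mice were brought to the weight of the RYGB mice by calorie restriction. The sources used here do not give strain, sex, age, diet or any genetic change, nor whether WM mice were operated on. The comparison of RYGB with WM is made at matched weight, and takes surgery together with the absence of calorie restriction and possibly of a sham operation. The comparisons with Sham take surgery or calorie restriction together with the lower weight. Each library is taken to be 1 animal from its own sample number, which the labels do not state, so that p-values measure the spread between these samples.

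Heme is an iron-holding ring made in nearly all cells and in largest amounts in red cell precursors and the liver. Synthesis begins and ends in mitochondria: ALAS1 (in most tissues) or ALAS2 (in red cell precursors) joins glycine and succinyl-CoA, steps in the cytosol, among them those of ALAD, UROS and UROD, build the ring, and CPOX, PPOX and FECH finish it and insert iron. In hepatocytes much of the heme goes to cytochromes P450, and heme itself represses ALAS1. Globin messenger RNA is made in red cell precursors and remains in young circulating red cells, so that in adult liver it usually arrives with blood.

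Hbb-bs and Hbb-bt, the 2 adult beta globin genes annotated in the GRCm38 build, lie on its chromosome 7 (103826534 to 103828096 and 103812524 to 103813996, minus strand). Hba-a1 and Hba-a2, the adult alpha globin genes, lie on chromosome 11 (32283511 to 32284465 and 32296489 to 32297298, plus strand). Alas2 is on chromosome X (150547375 to 150570638, plus strand), Alas1 on chromosome 9 (106233455 to 106248654, minus strand), Urod on chromosome 4 (116989965 to 116994413, minus strand) and Ppox on chromosome 1 (171275990 to 171281186, minus strand). Each is annotated as protein coding in GENCODE M21. RefSeq (GRCm38.p6) held a promoter entry for 8 of the 9 genes. The following upstream stretches are shown because these are members known from red cell precursors. Hba-a1, another such member, is not printed. No marked element stands in every printed stretch, and some matches lie outside them, as given below. Each runs 5′ to 3′ on the gene's strand, within 215 bases before its RefSeq start, and bases inside a GENCODE M21 exon are left out. Capitals mark AGATAA or TGATAA (the letters bound by GATA factors), CACCC (bound by KLF1, the erythroid Krüppel-like factor), CCAAT and TATAA, on either strand.
Hbb-bs, chr7:103827929-103828011, minus strand: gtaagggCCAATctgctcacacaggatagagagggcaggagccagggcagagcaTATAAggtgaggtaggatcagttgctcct
Hbb-bt, chr7:103813997-103814138, minus strand: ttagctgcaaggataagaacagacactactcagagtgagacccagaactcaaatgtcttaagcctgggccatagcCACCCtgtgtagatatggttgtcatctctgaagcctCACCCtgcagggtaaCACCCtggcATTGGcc
Hba-a2, chr11:32296277-32296488, plus strand: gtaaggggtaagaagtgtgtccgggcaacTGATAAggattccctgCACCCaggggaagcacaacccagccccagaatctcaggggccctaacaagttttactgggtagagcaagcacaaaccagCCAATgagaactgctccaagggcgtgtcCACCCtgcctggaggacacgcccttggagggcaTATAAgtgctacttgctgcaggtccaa
Alas2, chrX:150547202-150547374, plus strand: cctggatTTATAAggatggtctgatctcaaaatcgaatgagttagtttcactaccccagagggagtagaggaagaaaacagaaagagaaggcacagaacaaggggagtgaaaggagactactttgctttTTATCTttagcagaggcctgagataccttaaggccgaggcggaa

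Over the 250 bases before each RefSeq start, the GATA letters stood once each before Hbb-bs, Hba-a1, Hba-a2 and Alas2 and were found before neither Hbb-bt, Alas1, Urod nor Ppox, against 16.6% of 32851 mouse promoters with a match. CACCC was found once before Hbb-bs and each of the starts of Alas1, 3 times before Hbb-bt and Alas2, 2 times before each alpha globin gene and in none of the Urod and Ppox windows, against 52.0% of promoters. CCAAT stood before each globin gene (33.8% of promoters), and TATAA stood before each globin gene and Alas2 (22.8%). In each globin gene a TATAA match lay between 30 and 23 bases before the start. In Alas2 the TATAA matches, overlapping letters read on both strands, lay farther off, 208 to 203 bases before the start. The 250-base windows of Hba-a1 and Hba-a2 were identical at 97.6% of aligned positions, and those of Hbb-bs and Hbb-bt at 70.9%. The GATA and CACCC matches of Hbb-bs, the CACCC matches of Alas2 and, of Hbb-bt, both TATAA matches and all but 1 of the CCAAT matches lie outside the stretches printed. These are matches of letters only.

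Levels are CPM, the count of a gene scaled to 1e+06 counts in the library, with library sizes scaled by TMM, a method that assumes most genes do not change. The libraries hold the 3′ ends of messenger RNA, about 1 fragment for each transcript, so that CPM can be set side by side between genes without dividing by length. Library totals lay between 13659647 and 17391377 counts for Sham, between 14208021 and 22766612 for WM and between 14002193 and 19958019 for RYGB. Liver identity was clear in every library: the 7 hepatocyte markers in the table summed to between 32759 and 148112 CPM. Transcripts of 13 genes of pancreatic acinar cells (Cela1, found in every library, is left out) summed to 1208 CPM in Sham 17, 2621 in RYGB 18 and 2604 in RYGB 19, and to at most 24.4 CPM in the other 21 libraries. WM 25 stood apart for several heme enzymes. A gene is called changed at an adjusted p under 0.05 in the edgeR quasi-likelihood test over 13121 genes. Every adjusted p of a gene is from that test unless another tool is named. The ± after a log2 fold change is its standard error, derived from the F statistic of that test. After a level, share or ratio, ± is the SD over the 8 libraries of the group.

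Globin messenger RNA was higher in the livers of both groups of lighter mice than after sham surgery, about 3-fold for Hbb-bs, with no detected difference between bypass and calorie restriction. These folds are without a correction for GC content and transcript length, which lowered several folds of the other globins, as given below. The corrected folds of Hbb-bs against Sham are not reported here. Of the 9 genes, 3 rose and 0 fell in RYGB against Sham (Hbb-bs, Hbb-bt and Fech), and 7 rose and 0 fell in WM against Sham (each of the 4 globins, Alas2, Fech and Ppox). None of the 9 was called between RYGB and WM (smallest adjusted p = 0.528, and 0 of 9 at an unadjusted p under 0.05; 0 also under DESeq2 and limma-voom). The shares of all tested genes called in either direction were 23.7% for RYGB against Sham, 31.4% for WM against Sham and 1.49% for RYGB against WM. Higher calls alone made up 12.7%, 16.5% and 1.06% of tested genes. The median log2 fold change of the 9 genes was 0.69 in RYGB against Sham and 1.23 in WM against Sham, beside -0.01 for all tested genes in each.

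**Figure D1:**
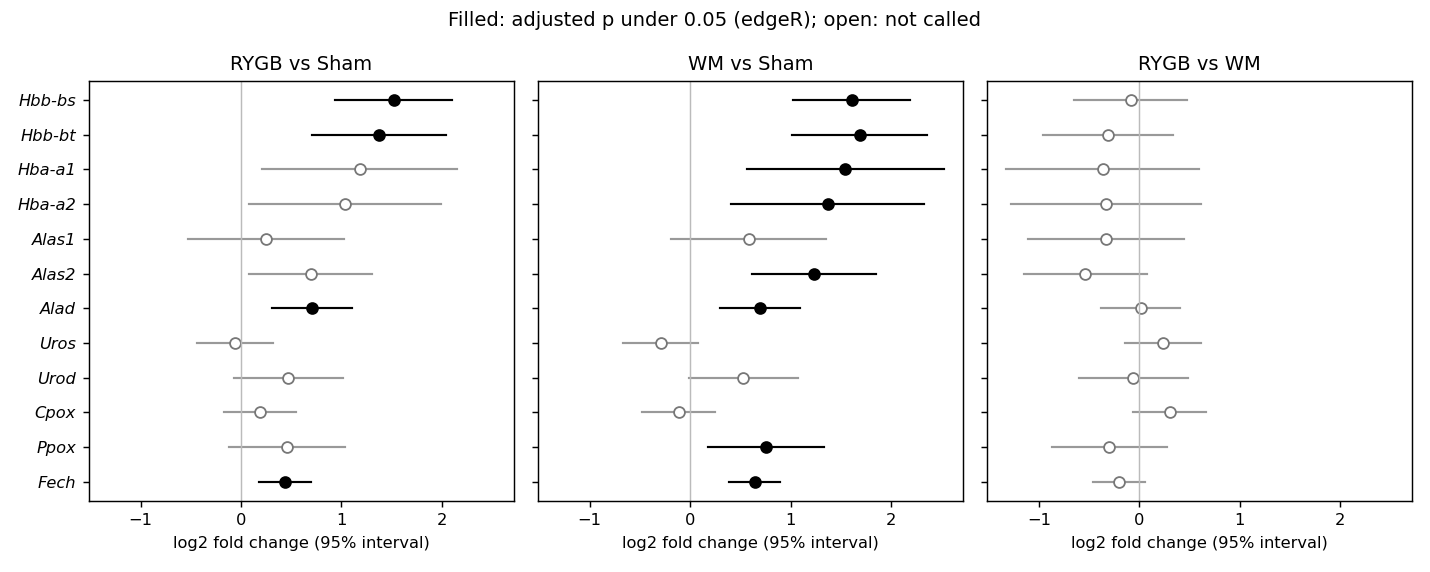
Log2 fold change with its 95% interval (horizontal axis) for the globins and 8 enzymes of heme synthesis in pathway order, in the 3 comparisons. Filled points passed the edgeR test. Filled points lie to the right of 0 in both comparisons with Sham, and there are none between RYGB and WM.

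Hbb-bs was the most abundant of the 9 genes in every group. Its level was 593 CPM in the lowest, 1018 in the median and 1781 in the highest Sham library, against 1133, 2560.3 and 7226 in WM and 2046, 3014 and 4280.0 in RYGB. Each of the 8 RYGB libraries lay above the highest Sham library, and 7 of 8 WM libraries did, the exception being WM 9. Hbb-bs rose by a log2 fold change of 1.52 ± 0.28 in RYGB against Sham (2.87-fold, 95% interval 1.92 to 4.28, adjusted p = 0.000246) and by 1.61 ± 0.28 in WM against Sham (3.05-fold, 2.04 to 4.55, adjusted p = 8.6e-05). RYGB and WM differed by -0.09 ± 0.28 (adjusted p = 0.966, 95% interval of the fold 0.635 to 1.39), so that a difference of the size seen against Sham lies outside the interval.

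Hbb-bt, the second beta globin gene, was less abundant and followed Hbb-bs. Its level was 136, 187 and 427 CPM in the lowest, median and highest Sham library, 211, 629 and 1759.8 in WM and 315, 588 and 946 in RYGB. The groups overlapped by the top Sham libraries: 6 of 8 RYGB and 5 of 8 WM libraries exceeded the highest of them, Sham 16. The log2 fold change was 1.37 ± 0.32 in RYGB against Sham (adjusted p = 0.00261) and 1.69 ± 0.33 in WM against Sham (adjusted p = 0.000255). With counts corrected for trends on GC content and transcript length, the RYGB value was 0.84 and no longer called (adjusted p = 0.0585). Hbb-bt made up 17.1% ± 2.54 (SD, n = 8) of the 2 beta globins in Sham, 17.5% ± 2.13 in WM and 15.8% ± 1.59 in RYGB, and this share passed in none of the 3 comparisons (exact permutation test, adjusted p of 0.276 and above). No 50-base word of the last 200 bases of either transcript occurred in another annotated gene. Of the words in the last 500 bases of Hbb-bs, 64.7% were also in Hbb-bt, and the sources used here do not say how reads that fit both were counted.

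Hba-a1 and Hba-a2 were lower in level than either beta globin gene in the median of each group. Hba-a1 was 7.08, 75.9 and 180.4 CPM in the lowest, median and highest Sham library, 18.4, 246 and 516 in WM and 95.9, 172 and 371 in RYGB. Sham 2 and WM 9 were far below the rest of their groups, and 7 of 8 WM but 4 of 8 RYGB libraries lay above the highest Sham library. Hba-a1 rose in WM against Sham by 1.54 ± 0.48 (2.92-fold, adjusted p = 0.0146), and its value in RYGB against Sham was 1.18 ± 0.48, which was not called (adjusted p = 0.0703). Hba-a2 was 3.49, 67.2 and 146 CPM in Sham, 17.3, 171 and 389.6 in WM and 77.6, 144 and 238 in RYGB. It rose in WM against Sham by 1.37 ± 0.47 (adjusted p = 0.0264) and stood at 1.03 ± 0.47 in RYGB against Sham (adjusted p = 0.108). These 2 genes share 66.9% (Hba-a1) and 56.3% (Hba-a2) of the 50-base words of their last 200 bases, so the split of reads between them is uncertain. How reads that fit both were counted is not given. If such reads were left out, the sum of the 2 genes is too low as well.

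The alpha globin calls were less firm than those of beta globin. After the correction for GC content and length, Hba-a1 stood at 0.91 (adjusted p = 0.11) and Hba-a2 at 0.59 (adjusted p = 0.312) in WM against Sham. The Hba-a2 call was also lost without WM 20 (1.12, adjusted p = 0.0736), without Sham 6 (adjusted p = 0.0517), without Sham 17 (adjusted p = 0.05) or without the 3 libraries with acinar transcripts (1.25, adjusted p = 0.0616). In the other direction, Hba-a1 was called in RYGB against Sham without Sham 3 (1.36, adjusted p = 0.0424) or without Sham 5 (1.41, adjusted p = 0.0404), and under limma-voom (1.14, adjusted p = 0.0412). It was also called in a fit of only the 2 groups compared (1.203, adjusted p = 0.0421) and under limma-trend on the deposited normalized values (1.55, adjusted p = 0.039).

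**Figure D2:**
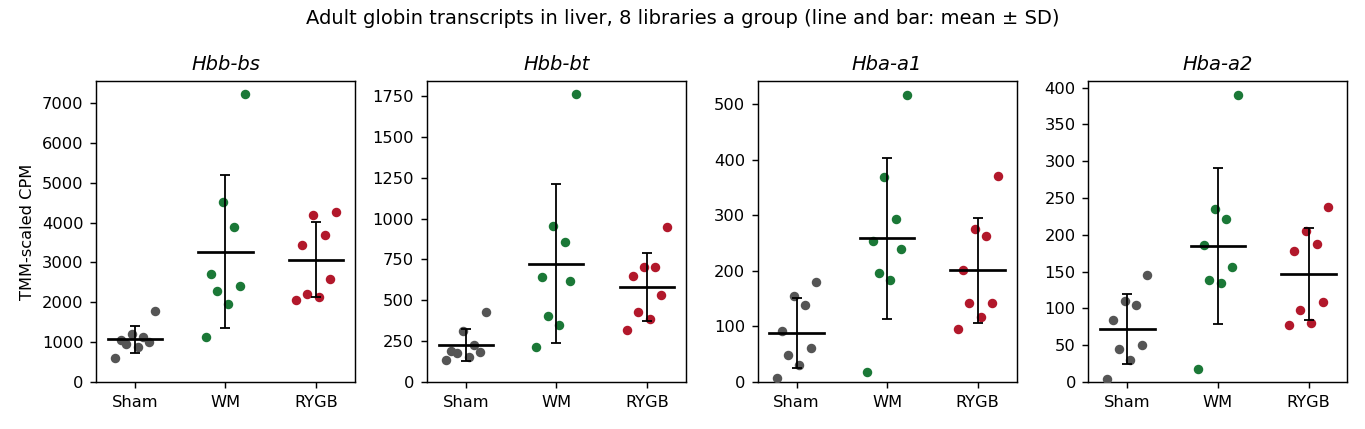
TMM-scaled CPM (vertical axes, each from 0) of the 4 adult globin genes in the 8 libraries of each group. Points are libraries, lines and bars are mean ± SD. The lowest RYGB library for Hbb-bs, at 2046 CPM, lies above the highest Sham library at 1781, while WM ranges from 1133 to 7226.

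Summed over the 4 genes, adult globin took 0.102% to 0.290% of all counts in Sham libraries. The share was 0.150% to 0.809% in WM and 0.256% to 0.524% in RYGB. The summed level was 1458 ± 471 CPM in Sham, 4435 ± 2638 in WM and 4003 ± 1143 in RYGB (mean ± SD, n = 8). On the log2 scale it was higher by 1.47 in RYGB than in Sham (8 of 8 libraries above the Sham median) and by 1.46 in WM than in Sham (7 of 8). By two-sided exact permutation tests over the libraries, adjusted over 15 tests, these differences had p = 0.000777 and p = 0.00408. RYGB and WM differed by 0.012 (adjusted p = 0.973), a value whose sign turned when single libraries were left out. The coefficient of variation of the sum was 59.5% in WM, 32.3% in Sham and 28.5% in RYGB, with WM 9 at 1380.1 CPM and WM 20 at 9892. Equality of the spread was not tested. Alpha globin made up 1.43% (Sham 2) to 20.5% (RYGB 29) of the globin counts, with medians of 7.90% in Sham, 9.55% in WM and 8.09% in RYGB. This is a share of deposited counts, and leaving out reads that fit several globin genes would shift it. In bulk tissue, more blood or more young red cells in the sample and more globin RNA in each cell cannot be told apart.

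Other genes of red cells were measured to set beside the globins. Of 34 erythroid genes listed, 18 were in the table. Defining genes of that lineage such as Ahsp, Gata1, Ank1 and Rhag were not in it and could not be analysed. Slc4a1, the anion exchanger of the red cell membrane, had medians of 0.178 CPM in Sham, 0.127 in WM and 0.153 in RYGB, with 0 counts in 5 of 24 libraries, and had too few counts to be tested. Klf1, the transcription factor of globin genes, was 1.59 ± 0.424 CPM in Sham and 4.23 ± 1.39 CPM in WM and rose by 1.40 ± 0.41 on the log2 scale (adjusted p = 0.0107), with 8 of 8 WM libraries above the highest Sham library. In RYGB it was 2.04 ± 1.57 CPM (0.36 ± 0.41 against Sham, adjusted p = 0.571).

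In RYGB against Sham 2 of the 17 tested erythroid genes rose and 0 fell, beside 12.7% and 11.0% of all tested genes. In WM against Sham 6 of the erythroid genes rose and 1 fell, beside 16.5% and 15.0%. Their median log2 fold changes were 0.34 and 0.29, beside -0.01 for all tested genes. The WM genes were Prdx2, a red cell peroxiredoxin that liver also makes (0.70 ± 0.14, adjusted p = 0.000383), Klf1, Cd24a (1.33 ± 0.40), Mkrn1 (0.49 ± 0.15), Tent5c and Bpgm, the enzyme that makes 2,3-bisphosphoglycerate, while Car2, a carbonic anhydrase, fell (-0.80 ± 0.28, adjusted p = 0.026). The RYGB genes were Prdx2 (0.58 ± 0.14, adjusted p = 0.00315) and Tfrc, the transferrin receptor that brings iron into cells. Tfrc was 13.6 ± 5.95 CPM in Sham, 10.9 ± 5.25 in WM and 99.3 ± 60.2 in RYGB (log2 fold change 2.87 ± 0.42 against Sham, adjusted p = 1.31e-05, and 3.19 ± 0.42 against WM, adjusted p = 5.19e-05), and hepatocytes also make it. Of the RYGB libraries 7 of 8 lay above every Sham and WM library, and RYGB 29, at 8.78 CPM, did not.

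The summed level of the erythroid genes was 337 ± 31.1 CPM in Sham, 455 ± 43.7 in WM and 502 ± 72.0 in RYGB, higher than in Sham on the log2 scale by 0.57 in RYGB and by 0.43 in WM (adjusted p = 0.000777 for both, exact permutation test). Without Tfrc and Prdx2, a sum chosen after the values were seen, it was 172 ± 19.3, 198 ± 22.3 and 175 ± 25.6 CPM, and the differences from Sham were 0.025 in RYGB (adjusted p = 0.915) and 0.20 in WM (adjusted p = 0.141). With library totals in place of TMM they were 0.22 (adjusted p = 0.41) and 0.11 (adjusted p = 0.589).

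Markers of other liver cells also differed between the groups, and their part in the globin values was not tested. Of 13 Kupffer cell markers, 9 rose in RYGB and 7 in WM against Sham, and their summed level ran from 183 to 572 CPM in Sham libraries, from 400.3 to 992 in WM libraries and from 344 to 1140.3 in RYGB libraries. Of 8 markers of sinusoidal endothelium, 4 rose in RYGB and 5 in WM (summed level from 76.6 to 321 CPM in Sham libraries, from 257 to 408 in WM libraries and from 155 to 338 in RYGB libraries). Of 7 hepatocyte markers, 5 rose in RYGB and 6 in WM. Among all tested genes 12.7% rose in RYGB and 16.5% in WM against Sham. Markers of other blood cells were low: the 5 neutrophil and bone marrow markers in the table summed to medians of 7.61, 8.35 and 7.19 CPM in Sham, WM and RYGB, and the 5 platelet markers to 4.75, 4.56 and 7.93 CPM. The platelet sum did not overlap between RYGB (6.13 to 10.9 CPM) and Sham (2.74 to 5.44 CPM), while WM spanned 1.94 to 8.82 CPM. Of these markers 2 and 3 could be tested, and none was called, the 3 platelet markers having a median log2 fold change of 0.89 in RYGB and 0.19 in WM against Sham. Of 6 tested lymphocyte markers, 3 rose in each of RYGB and WM (Cd3d, Igkc and Trbc2), with summed medians of 14.3, 31.8 and 36.7 CPM in Sham, WM and RYGB.

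Among the enzymes of heme synthesis, Fech rose in both groups and Alas1, the enzyme that sets the rate in liver, passed in neither. Over the 8 enzymes of the pathway analysed here, 2 rose in RYGB against Sham (Alad, Fech) and 4 in WM against Sham (Alas2, Alad, Ppox, Fech), 0 fell in either, and 0 were called between RYGB and WM. The median log2 fold change of the 8 enzymes was 0.45 in RYGB and 0.61 in WM against Sham. Higher calls made up 12.7% of all tested genes in RYGB and 16.5% in WM against Sham.

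Alas1 was 55.4, 89.6 and 183 CPM in the lowest, median and highest Sham library, 70.2, 96.5 and 482 in WM and 53.2, 99.7 and 314 in RYGB. The medians were close and the groups overlapped along most of their range, with 1 high library each in WM (WM 30) and RYGB (RYGB 19). The log2 fold change was 0.25 ± 0.38 in RYGB against Sham (adjusted p = 0.679) and 0.58 ± 0.38 in WM against Sham (adjusted p = 0.25), with fold intervals of 0.695 to 2.03 and 0.874 to 2.56. Without WM 30 the WM value was 0.044, and without RYGB 19 the RYGB value was -0.13.

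Alas2, the first enzyme in red cell precursors, was 8.76, 34.2 and 42.6 CPM in Sham, 26.8, 65.4 and 122 in WM and 19.4, 51.4 and 68.8 in RYGB. In WM 7 of 8 libraries were above the highest Sham library, and in RYGB 6 of 8 were, with RYGB 11 and RYGB 22 inside the Sham range. Alas2 rose in WM against Sham by 1.23 ± 0.30 (2.35-fold, 1.53 to 3.60, adjusted p = 0.00254). Its value in RYGB against Sham, 0.69 ± 0.30 (adjusted p = 0.0917), was not called, and was called without RYGB 11 (0.81, adjusted p = 0.0426) or under limma-voom (0.71, adjusted p = 0.0227). RYGB and WM were not shown to differ (-0.54 ± 0.30, adjusted p = 0.528, fold interval 0.451 to 1.05). Set against globin, Alas2 was 0.0207 ± 0.00947 of the summed globin level in Sham, 0.0186 ± 0.00701 in WM and 0.0135 ± 0.00705 in RYGB, and the ratio passed in none of the comparisons (exact permutation test, adjusted p of 0.291 and above).

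Fech inserts iron into protoporphyrin and was the steadiest of the 9 genes within a group. It was 68.9, 78.2 and 88.8 CPM in Sham, 95.6, 129 and 138 in WM and 87.4, 101 and 129 in RYGB. All 8 WM libraries lay above all Sham libraries, as did 7 of 8 RYGB libraries. Fech rose by 0.64 ± 0.13 in WM (1.56-fold, 1.31 to 1.86, adjusted p = 0.000275) and by 0.44 ± 0.12 in RYGB (1.35-fold, 1.13 to 1.62, adjusted p = 0.0108). These small folds depended on scaling: with library totals alone they were 0.32 (adjusted p = 0.0751) and 0.091 (adjusted p = 0.65), where the median of all genes also moved, to -0.34 and -0.36. The RYGB call was lost without the 3 libraries with acinar transcripts (0.40, adjusted p = 0.0527). The Fech to Alas1 ratio ran from 0.286 to 2.25 over the 24 libraries and differed in no comparison (exact permutation test, adjusted p of 0.618 and above).

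Urod, which decarboxylates uroporphyrinogen, was 36.5, 78.4 and 125 CPM in Sham, 61.2, 99.8 and 245 in WM and 63.6, 102 and 165 in RYGB. The groups overlapped widely, and its values of 0.53 ± 0.27 in WM and 0.47 ± 0.27 in RYGB against Sham were not called (adjusted p = 0.13 and 0.207). Of the 50-base words in its last 200 bases, 40.4% were also in other annotated genes, most of them in Gm26604, so that its count is uncertain. Ppox, the enzyme before FECH, was the least abundant member, at 22 to 65 counts a library. It was 0.949, 1.85 and 2.38 CPM in Sham, 1.69, 3.16 and 4.92 in WM and 1.38, 2.15 and 4.14 in RYGB. It rose in WM by 0.76 ± 0.28 (adjusted p = 0.0413), a call that was lost on leaving out any of 11 of the 16 libraries compared (adjusted p from 0.0524 to 0.0992), and stood at 0.46 ± 0.28 in RYGB (adjusted p = 0.254).

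The other enzymes of the pathway gave a mixed picture. Alad, which joins aminolevulinic acid into porphobilinogen, was 94.7 ± 19.6 CPM in Sham, 154 ± 58.5 in WM and 155 ± 36.2 in RYGB, and rose in WM (0.70 ± 0.19, adjusted p = 0.00714) and RYGB (0.71 ± 0.19, adjusted p = 0.00845). The RYGB call on Alad was lost without the 3 libraries with acinar transcripts (0.56, adjusted p = 0.0746), and with library totals alone both Alad calls were lost (0.34 and 0.37, adjusted p = 0.128 and 0.11). Uros, at 7.70 ± 1.35, 6.28 ± 1.59 and 7.39 ± 1.44 CPM in Sham, WM and RYGB, and Cpox, at 192 ± 36.9, 178 ± 39.9 and 219 ± 54.4 CPM, were called in none of the comparisons. Uros was called lower in WM than in Sham with library totals alone (-0.62, adjusted p = 0.0126) and after the correction for GC content and length (-0.49, adjusted p = 0.0445).

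**Figure D3:**
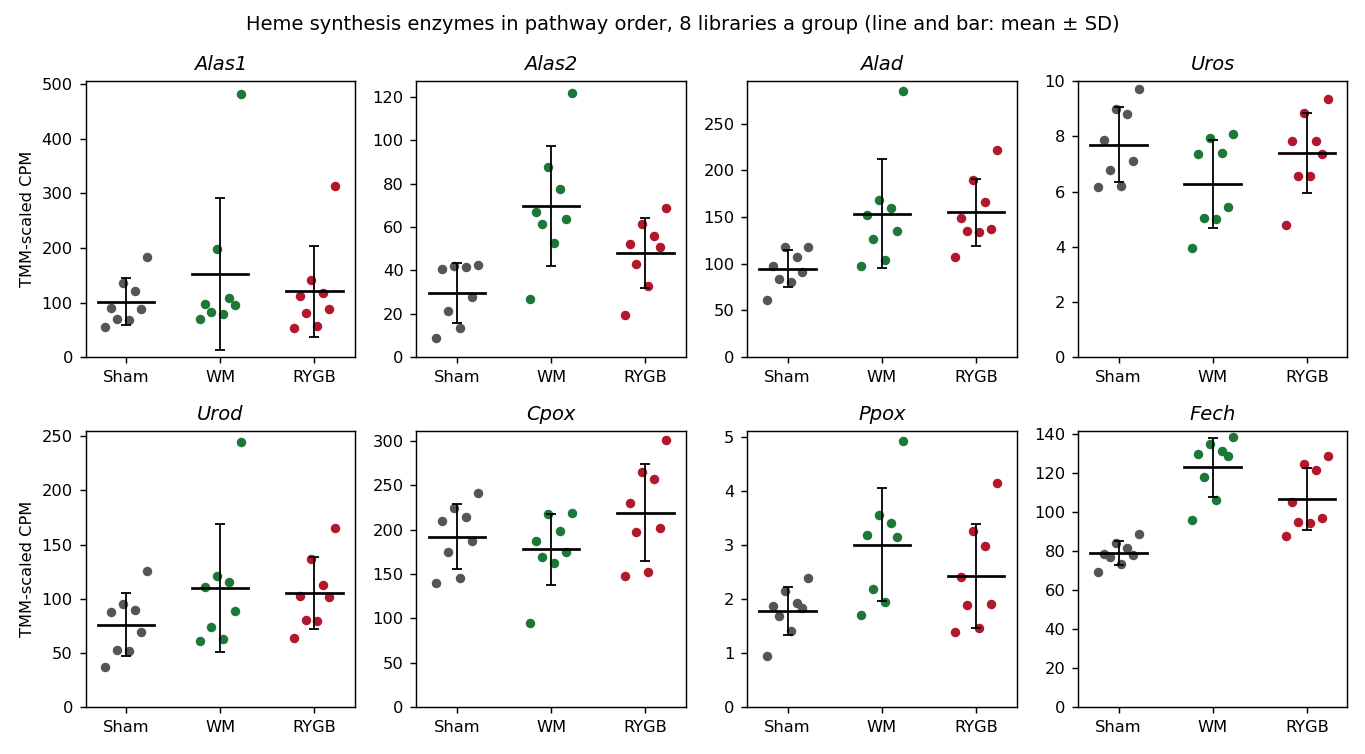
TMM-scaled CPM (vertical axes, each from 0) of 8 enzymes of heme synthesis in pathway order, 8 libraries in each group. Points are libraries, lines and bars are mean ± SD. Fech separates WM from Sham with no overlap, Alas1 does not, and single WM and RYGB libraries carry the highest Alas1 values, 482 and 314 CPM.

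Without the 3 libraries with acinar transcripts, 2 members rose in RYGB and 6 in WM against Sham. Leaving out those libraries together with WM 25, a setting chosen after the values were seen, 3 members rose in RYGB and 5 in WM against Sham, and none was called between RYGB and WM. The summed globin level then differed from Sham by 1.35 in RYGB (adjusted p = 0.00583) and 1.41 in WM (adjusted p = 0.0131), by the exact permutation test.

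Levels that moved together from animal to animal were looked for after subtracting group means from log2 CPM, over 24 libraries and 66 pairs of 12 genes (permutation within groups, Benjamini-Hochberg over the pairs). The strongest pairs were paralogues: Hba-a1 with Hba-a2 (r = 0.98, rho = 0.97) and Hbb-bs with Hbb-bt (r = 0.96, rho = 0.95). Each had the smallest p the 100000 permutations can give (1e-05). The alpha pair shares sequence near the transcript end and the beta pair only farther from it, as given above. If reads that fit both genes were counted to both or divided between them, part of these correlations is built in. How far these pairs exceed the others is therefore uncertain. Alpha and beta globin were less tightly tied, with r = 0.59 between Hbb-bs and Hba-a1 (adjusted p = 0.0261), rho = 0.40 (adjusted p = 0.173) and r = 0.35 without WM 9 and WM 20, on which the relation rests. Alas2 varied with Hba-a1 (r = 0.75, adjusted p = 0.00341, and 0.52 without Sham 2 and WM 9, rho = 0.51, adjusted p = 0.0907) and hardly with Hbb-bs (r = 0.21, adjusted p = 0.623, and 0.03 without WM 9 and WM 20, rho = 0.08). Urod and Alad varied together (r = 0.92 and rho = 0.91, each at an adjusted p of 0.00022, and 0.87 without Sham 2 and WM 25), and so did Alas2 and Urod (r = 0.74, adjusted p = 0.00181, 0.65 without Sham 2 and WM 9, rho = 0.70, adjusted p = 0.00884).

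**Figure D4:**
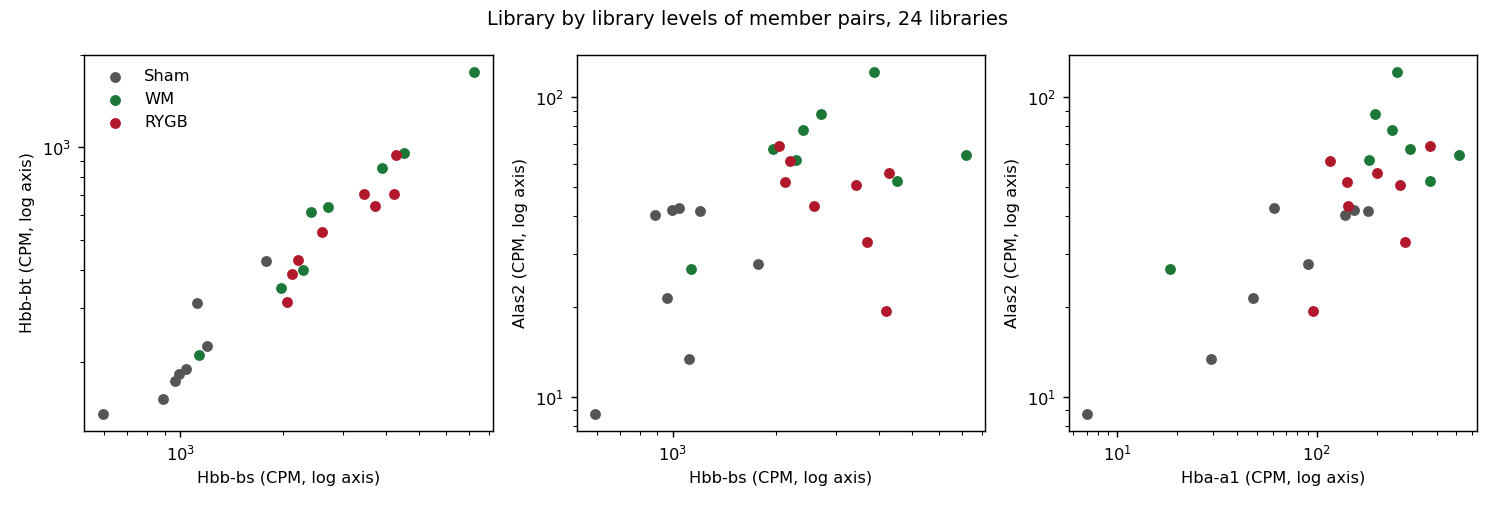
Hbb-bt against Hbb-bs, Alas2 against Hbb-bs and Alas2 against Hba-a1 in 24 libraries (CPM, log axes), coloured by group. The 2 beta globins fall along a line across all groups, while Alas2 spreads widely at a given Hbb-bs level.

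Likeness to all tested genes was also taken after subtracting group means. By this measure the closest to Hbb-bs after Hbb-bt (r = 0.96) were Dapk3 (0.77), Rex1bd (0.74), Col1a2 (0.73) and Dnmbp (0.73). No other gene came near the r of the paralogue, to which reads that fit both genes may contribute. The closest to Alas2 were Cox6b1, a subunit of cytochrome oxidase (0.93), Serpina1b (0.92), Rab4a (0.92), Eif4ebp1 (0.91) and Edf1 (0.91), and no globin was among them. The closest to Fech were ENSMUSG00000091562 (0.75), Nifk (0.74), Zdhhc17 (0.74), Hbegf (0.70) and Morn1 (0.69), and to Alas1 were Trim80 (0.68), 1700056E22Rik (0.67), Ppp1r3e (0.67), Cmss1 (0.66) and Gpr146 (0.65). By rank correlation 3, 2, 3 and 2 of these 5 names stayed among the top 5 for Hbb-bs, Alas2, Fech and Alas1. Without subtracting group means 1, 2, 0 and 3 of them stayed, and Col1a2 had r = -0.50 and Dnmbp r = -0.04 with Hbb-bs.

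Of 16 genes that serve the mitochondrial handling of iron, substrates and porphyrins, 4 rose and 0 fell in RYGB against Sham. In WM against Sham 6 rose and 2 fell, and the medians were 0.19 in RYGB and 0.25 in WM. The shares of all tested genes that rose and fell were 12.7% and 11.0% in RYGB and 16.5% and 15.0% in WM. Tmem14c, needed for protoporphyrinogen import in red cell precursors, was 125 ± 29.7 CPM in Sham, 249 ± 51.4 in WM and 259 ± 32.5 in RYGB (log2 fold changes of 1.00 ± 0.16 and 1.05 ± 0.16, adjusted p = 2e-05 and 1.7e-05), with no overlap of either group with Sham. Slc25a38, the mitochondrial glycine carrier, rose by 1.18 ± 0.18 in WM and 0.81 ± 0.18 in RYGB (adjusted p = 1.77e-05 and 0.00175). Abcb10, a mitochondrial transporter that aids heme synthesis, rose by 0.68 ± 0.14 and 0.64 ± 0.14 (adjusted p = 0.000687 and 0.00168), and Isca2, an iron-sulfur cluster assembly factor, by 0.87 ± 0.17 and 0.59 ± 0.17 (adjusted p = 0.000277 and 0.0109). Clpx, the chaperone that activates ALAS, was 96.5 ± 35.3 CPM in Sham, 37.0 ± 16.5 in WM and 126 ± 68.0 in RYGB. It fell in WM (-1.38 ± 0.30, adjusted p = 0.00084) and was the 1 gene of this list called between RYGB and WM (1.77 ± 0.30, adjusted p = 0.00103).

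Of 11 listed regulators of Alas1, 2 rose and 0 fell in RYGB against Sham, beside 12.7% and 11.0% of all tested genes. In WM against Sham 1 rose and 1 fell, beside 16.5% and 15.0% of all tested genes. The medians of the regulators were 0.35 in RYGB and 0.15 in WM. Nr1i3, the nuclear receptor CAR, rose in RYGB (0.56 ± 0.16, adjusted p = 0.0112) and WM (0.77 ± 0.16, adjusted p = 0.000538), and Nr1i2, the receptor PXR, rose in RYGB (0.76 ± 0.27, adjusted p = 0.0427). Ppargc1a, the fasting coactivator that induces Alas1, fell in WM from 15.5 ± 3.75 to 7.66 ± 2.74 CPM, with no overlap (-1.01 ± 0.21, adjusted p = 0.000422), and was 13.1 ± 2.82 CPM in RYGB (adjusted p = 0.406 against Sham and 0.0522 against WM). Egr1, an immediate early transcription factor, was higher in RYGB than in WM (1.88 ± 0.40, adjusted p = 0.00901). Nr1d1, the heme-binding clock repressor, had adjusted p = 0.672 in RYGB and 0.892 in WM against Sham.

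Among 23 hemoproteins and their partners in liver, 9 rose and 2 fell in RYGB against Sham, beside 12.7% and 11.0% of all tested genes. In WM against Sham 10 rose and 3 fell, beside 16.5% and 15.0% of all tested genes. The medians of this list were 0.43 in RYGB and 0.27 in WM. Cyp2e1 was 1469.6 ± 271 CPM in Sham, 4479 ± 605 in WM and 4087 ± 656 in RYGB and rose in both (1.61 ± 0.15 and 1.48 ± 0.15, adjusted p = 1.73e-08 and 9.1e-08). Cyp51, a sterol demethylase, rose by 1.44 ± 0.18 and 2.12 ± 0.18, and Cyp2c70, which makes muricholic acids, by 0.95 ± 0.19 and 1.35 ± 0.19. Cyp2b10, a target of CAR, was 4.89 ± 4.13 CPM in Sham, 0.0373 ± 0.0565 in WM and 0.0713 ± 0.179 in RYGB and fell in both (adjusted p = 5.88e-07 and 2.47e-06). Cyp3a11, a drug-metabolizing enzyme, fell from 1252 ± 219 CPM to 156 ± 72.1 in WM (-3.01 ± 0.26) and 508 ± 151 in RYGB (-1.30 ± 0.24). Between RYGB and WM 3 were called, each higher in RYGB: Cyp3a11 (1.71 ± 0.25, adjusted p = 0.000131), Cyp2c29 (1.15 ± 0.18, adjusted p = 0.000501) and Cyp51 (0.69 ± 0.18, adjusted p = 0.0386).

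Of 14 genes that capture, carry or break down hemoglobin and heme, 3 rose and 0 fell in RYGB against Sham. In WM against Sham 4 rose and 2 fell, and the medians were 0.17 in RYGB and -0.06 in WM. Beside these, 12.7% and 11.0% of all tested genes rose and fell in RYGB, and 16.5% and 15.0% in WM. Cd163, the macrophage receptor for hemoglobin bound to haptoglobin, was 1.76 ± 1.74 CPM in Sham, 9.17 ± 3.88 in WM and 9.01 ± 5.43 in RYGB (2.36 ± 0.42 and 2.33 ± 0.42, adjusted p = 9.41e-05 and 0.000165), beside the higher Kupffer cell markers given above. Blvra, biliverdin reductase A, rose by 0.81 ± 0.19 in WM and 0.83 ± 0.19 in RYGB (adjusted p = 0.00198 and 0.00219), and Lrp1, the receptor for heme bound to hemopexin, rose in RYGB (0.68 ± 0.20, adjusted p = 0.0119). In WM, Blvrb rose (0.52 ± 0.15) and the heme exporter Flvcr1 (-1.02 ± 0.37) and its relative Flvcr2 (-0.93 ± 0.35) fell, and Flvcr2 was higher in RYGB than in WM (1.58 ± 0.35, adjusted p = 0.0118). Hmox1, the inducible heme oxygenase, was 10.4 ± 2.13 CPM in Sham, 9.28 ± 4.07 in WM and 7.69 ± 2.53 in RYGB and was called in none of the comparisons, nor were Hp (haptoglobin) and Hpx (hemopexin).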

How the data were processed

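Libraries were made from liver RNA with a kit that primes at the 3′ end of messenger RNA and read for 50 bp, per the labels' protocols. The authors deposited raw read counts for 14995 genes and a normalized signal, which equals each count divided by a size factor of its library. DESeq2 1.34 and R 4.1.2 stand in the submitters' processing notes. The sources used here give no aligner, genome build, annotation or rule for reads that fit several genes. Deposited counts were tested in R 4.3.3 with edgeR 4.0.16 (filterByExpr, 13121 genes, TMM, quasi-likelihood F-test on 24 libraries together, Benjamini-Hochberg over all genes). Library measures were compared by two-sided exact permutation of 8 against 8 (12870 splits, smallest p 0.000155), adjusted over 15 tests. A count of 0 allows up to 3 counts. Intervals cover the spread between libraries. The procedure was tested on simulated data.

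Members and gene lists were chosen with earlier results of these data known. Members and the other heme enzymes were named throughout, from each further list up to 4 called genes with the smallest p, and a few fixed genes. Some genes of these lists are not reported here. Groups share no sample numbers and the labels give no batch. Alternatives were DESeq2 1.42.0, other scalings and filters, limma 3.58.1 (voom, and trend on the log2 of the deposited signal plus 1), a GC and length correction (mgcv 1.9.3), a minimum fold, and libraries left out. Gene positions came from GENCODE M21, and sequences from RefSeq GRCm38.p6.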

Additional observations from a re-analysis of the deposited data

Results flagged for a closer look

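Of 60 groups of 8 values examined for a library that stands apart by Dixon's criterion, 6 held one. The criterion is set to flag about 1 in 20 groups of independent, normally distributed values. The values here are levels, shares and ratios with no log taken, and several vary together, so that rate cannot be set against the 6. Alas1 was 482 CPM in WM 30 (next highest WM library 199) and 314 CPM in RYGB 19 (next 141). WM 25 held the highest WM value of Urod, 245 CPM (next 121), and of Alad, 284 CPM (next 169), and the lowest of Cpox, 94.2 CPM (next 162). Alpha globin made up 20.5% of the globin counts in RYGB 29 (next 9.96%).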

How the results depend on the processing

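No paired analysis was possible because no 2 groups share a sample number. Scaling by library totals moved the median log2 fold change of all genes to -0.36 in RYGB and -0.34 in WM against Sham, and the split of higher and lower calls from 1666 and 1443 to 754 and 3534, and from 2161 and 1964 to 1049 and 3637. Under it the number of members that rose in WM was 4 instead of 7, the erythroid sum was 0.22 and 0.11 above Sham and no longer called, Alas1 (-0.049) and Cpox (-0.16) in RYGB against Sham turned sign, and the globin sum of RYGB against WM was -0.0080. Under limma-voom 5 members rose in RYGB against Sham instead of 3. The cause was not tested. The remaining changes of sign were in values that were not called under any setting. In RYGB against WM the globin sum was -0.12 without the 3 acinar libraries, -0.055 also without WM 25 and -432 CPM as a difference of means, and Urod was 0.25 by limma-voom and 0.13 without those 4 libraries. On the deposited normalized values (limma-trend) Urod was 0.018 and Hbb-bs 0.048, and corrected for GC and length they were 0.051 and 0.12, and Alad was -0.11 without the acinar libraries. Without Tfrc and Prdx2 the erythroid sum was 0.025 (RYGB) and 0.20 (WM) against Sham and -0.18 between RYGB and WM. Alas1 in RYGB against Sham was -0.35 without the acinar libraries, with or without WM 25, and Cpox in WM against Sham was 0.033 without those 4. Leaving out each library in turn, values that turned sign ranged, for RYGB against WM, from -0.20 to 0.21 (globin sum), -0.24 to 0.27 (Fech to Alas1 ratio), -0.079 to 0.20 (Alad), -0.71 to 0.20 (Alas1), -0.22 to 0.19 (Hbb-bs), -0.45 to 0.017 (Hbb-bt) and -0.18 to 0.22 (Urod), for RYGB against Sham from -0.13 to 0.43 (Alas1) and -0.11 to 0.011 (Uros), and for WM against Sham from -0.30 to 0.054 (Alas2 to globin ratio). Members that rose then numbered 3 to 4 in RYGB and 5 to 7 in WM. Depth limits Ppox, at 22 to 65 counts a library, and Slc4a1, which could not be tested.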

Other observations

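Single libraries combined several of the extremes, and the values are given here with no test, having been picked after they were seen. RYGB 29 had the lowest Tfrc of its group (8.78 CPM, group median 95.3), the lowest Hbb-bs (2046 CPM), and the highest Hba-a1 (371 CPM), Alas2 (68.8 CPM) and Urod (165 CPM). RYGB 11 had the lowest Alas2 (19.4 CPM) and Hba-a1 (95.9 CPM) of its group and the highest Fech (129 CPM). WM 9 had the lowest value of its group for each of the 4 globins, Alas2, Urod and Ppox. Sham 2 had the lowest value of its group for the same 7 genes.

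A slope of log2 level on log2 transcript length, computed for each library over 13089 genes and chosen after the data were seen, lay between 0.0924 and 0.241 for Sham, between -0.211 and 0.0529 for WM and between -0.148 and 0.0234 for RYGB, so that Sham did not overlap the other groups. Within groups the slope was set against each of the 9 members and the alpha share of globin counts over 24 libraries. None of the 10 relations passed (permutation within groups, adjusted p of 0.453 and above for r and 0.992 for rho). Because group means were removed, these relations cannot say whether the shift of the slope between groups enters the contrasts with Sham. The globin transcripts are 554 (Hba-a2) to 703 (Hbb-bt) bases long, and calls lost after the correction for GC content and length are given above. For Hbb-bs r was -0.37 and rho was -0.11, and without WM 9 and WM 20 r was 0.17.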
